A study of Mus musculus with 5 samples.

Results

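Runx1, Runx2 and Runx3, the mouse genes of the Runt-related transcription factors, and Cbfb, the gene of their common partner, were described across the cells of the postnatal penis and the embryonic limb. The 4 genes were taken by their symbols from the 32285 features of the deposited gene lists, a rule that uses no measured value. Single cells were profiled from the penis of males on postnatal day 6 (3 libraries, the glans after removal of the prepuce, from 3 animals of 2 litters) and from forelimb (1 library) and hindlimb (1 library) of male embryos at embryonic day 15. The strain is C57BL/6N in the labels of every sample, whereas the study's methods name C57BL/6J for its mice. The study set penis beside limb in search of features of the baculum, the bone of the glans, by which that bone could be disturbed without harm to sexual development or to other bones. None of the groups carried a transgene, a deletion or a treatment. Tissue, age and preparation cannot be told apart in any comparison of penis with limb. The labels tie no library to an animal or a limb pair, so the p-values take libraries, and not animals, as replicates. The test behind most of them, edgeR's, also draws on the spread of other genes, so those do not rest on a gene's own libraries alone. The forelimb and the hindlimb library stood together as 1 limb group of 2, so the spread within that group includes any difference between the limbs.

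RUNX proteins bind DNA through the Runt domain, and CBFβ, which does not touch DNA itself, binds that domain, raises its affinity for DNA and protects the protein from degradation. RUNX2 is the factor that commits mesenchymal cells to the osteoblast lineage and drives chondrocyte hypertrophy, RUNX1 is required for definitive blood stem cells and acts in hair follicles and early skeletal progenitors, and RUNX3 acts in cytotoxic T cells, dendritic cells, sensory neurons and, beside RUNX2, in maturing cartilage. Each Runx gene has a distal and a proximal promoter, and binding sites for RUNX proteins themselves are known in the distal ones. Loss of CBFβ in mice impairs the formation of both blood and bone.

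The genes lie on 4 chromosomes of the mouse build GRCm38. Runx1 (ENSMUSG00000022952) spans chr16:92601466-92826149 on the minus strand. Runx2 (ENSMUSG00000039153) spans chr17:44495987-44814797 on the minus strand. Runx3 (ENSMUSG00000070691) spans chr4:135120652-135177990 on the plus strand, and Cbfb (ENSMUSG00000031885) spans chr8:105170674-105217989 on the plus strand. RefSeq promoter windows (build GRCm38.p6, from 250 bases before to 50 bases after a transcription start) matched all 4 genes, with 6 windows in all, since Runx1 and Runx3 have 2 each. They were searched on both strands for the RUNX core motif ACCACA, which reads TGTGGT on the other strand, and for no other motif. The distal windows of the Runx genes held a pair of cores in tandem, 2 bases apart, printed 5′ to 3′ on the gene's strand with the cores in capitals because the same element stands at the start of each family member.
Runx1, chr16:92826025-92826054, minus strand: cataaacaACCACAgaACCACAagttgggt
Runx2, chr17:44814582-44814611, minus strand: acaaacaACCACAgaACCACAagtgcggtg
Runx3, chr4:135120504-135120533, plus strand: tccctcaACCACAgaACCACAaggccaggc
The pair began 29 bases after the start in Runx1, 24 bases after it in Runx2 and 134 bases before it in Runx3 (position -134). Of 32851 mouse promoter windows of the same length, 5506 (16.8%) held at least 1 core and 7 (0.0213%) held such a tandem. The 18 bases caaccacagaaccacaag occurred in 3 windows, those of the Runx genes. The Cbfb window and the other windows of Runx1 and Runx3 held no core. Those 3 windows were also the richer in G and C (69.0% to 77.3%, with 30 to 45 CpG dinucleotides, against 45.0%, 45.3% and 63.7% with 2, 2 and 8 CpG in the distal windows). A match is a description of the letters in a window, and the UMI counts, which read the 3′ end of a transcript, do not tell which promoter made it.

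The deposited matrices hold 84440 barcodes, of which 62152 passed the study's limits on genes and mitochondrial UMIs per cell (19581 from penis and 42571 from limb). Kept cells gave 5.15e+07 to 1.49e+08 UMIs per library, with medians per cell of 9909, 9349 and 8792 UMIs in penis libraries 1, 2 and 3, 5358 in forelimb and 6057 in hindlimb. Cells were assigned by lists of marker genes that held none of the 4 genes, and a cell is called X-like when it passed the gate for X. Per library 11.9% to 21.9% of cells passed no gate. Another 0.619% to 0.848% passed gates of 2 classes other than mesenchyme, or tied between gates of 1 class, and were left out. No other doublet caller was run. Cells that passed the mesenchyme gate beside another gate were kept in the other type. Among macrophage-like cells these were 7.32% to 11.25% per penis library and 10.4% to 11.8% per limb library. Between any pair of libraries 20 to 203 cell barcodes were the same. Mesenchyme-like cells were the most numerous in every library (3787 to 4591 per penis library, 11760 in forelimb, 11096 in hindlimb), and muscle fibre-like cells were gathered from limb only (807 and 601). Levels below are CPM, the UMIs of a gene per 1000000 UMIs summed over the cells of 1 type in 1 library. Since 3′ UMIs carry no length term, each gene is compared with itself and not with another gene. Free RNA in the droplets can give a few UMIs in cells that do not express a gene, so low levels are read beside the lowest type.

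All 4 genes were detected in every library, and all were lower over whole penis libraries than over limb libraries. Runx1 was at 57.8, 55.3 and 58.9 CPM in penis libraries 1, 2 and 3, against 132 in forelimb and 145 in hindlimb. Runx2 was at 25.4, 26.6 and 31.7 CPM in penis against 41.2 and 49.5 in limb. Runx3 was at 5.66, 5.01 and 5.41 CPM against 15.9 and 19.2. Cbfb was at 75.2, 73.5 and 81.7 CPM against 104 and 120, so no penis library reached a limb library for any of them. The same lack of overlap, in either direction, held for 81.7% of the 20303 genes with at least 100 UMIs, and 37% of those genes were lower in every penis library, so it does not set the members apart. The limb mean over the penis mean was 3.27 for Runx3, 2.42 for Runx1, 1.63 for Runx2 and 1.46 for Cbfb (penis means ± SD of 5.36 ± 0.329, 57.4 ± 1.84, 27.9 ± 3.36 and 76.8 ± 4.35 CPM, n = 3), as a description with no test. Over a whole library, fewer cells of a type and less RNA per cell cannot be told apart, and the comparisons within a type below bear on the latter.

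**Figure D1:**
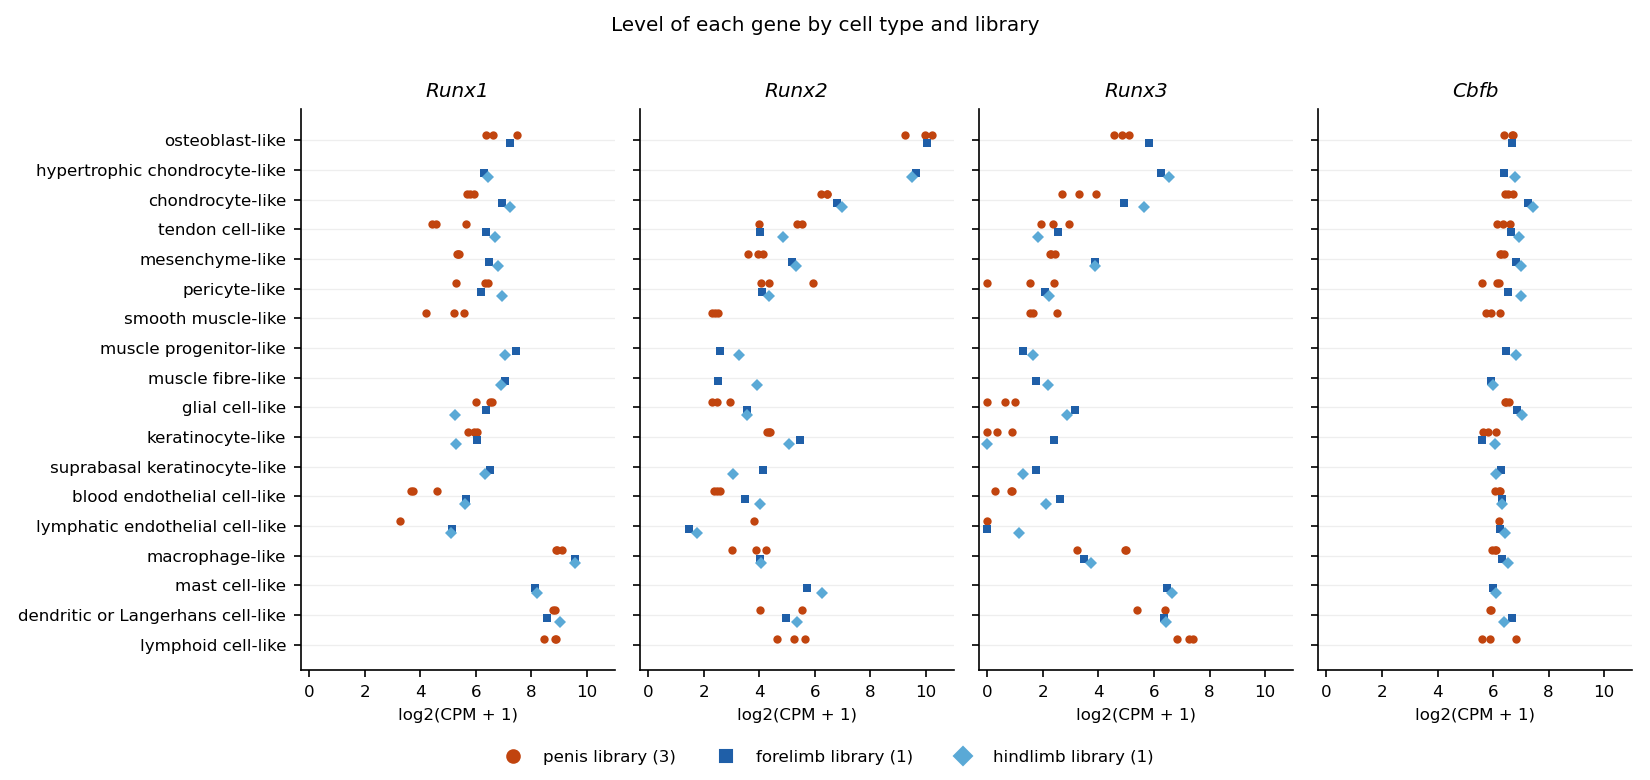
Level of each gene (1 panel per gene) as log2(CPM + 1) on the horizontal axis, by cell type on the vertical axis, with circles for the 3 penis libraries, a square for forelimb and a diamond for hindlimb wherever a library had at least 20 cells of that type. Runx1 peaks in macrophage-like, lymphoid-like and dendritic-like cells, Runx2 in osteoblast-like and hypertrophic chondrocyte-like cells and Runx3 in lymphoid-like, mast-like, dendritic-like and hypertrophic chondrocyte-like cells, while Cbfb stays within a ratio of 2.82 from the highest to the lowest type of the limb.

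Levels of the RUNX genes varied widely between cell types, and that of Cbfb varied little. Among the 11 types with at least 20 cells in every penis library, the highest mean level stood above the lowest by a ratio of 32.1 for Runx1 and 1.69 for Cbfb, and among the 15 such types of the limb by 22.7 and 2.82. The highest means of Runx2 (931 CPM in penis, 765 in limb) and Runx3 (144 and 94.1 CPM) stood above types with at most 2 UMIs of the gene per library, so no ratio is given for them. In the order of penis levels, 4 of 10 neighbouring pairs of types had library ranges that did not overlap for Runx2, 2 for Runx1, 1 for Runx3 and 0 for Cbfb, and in limb 6, 5, 6 and 2 of 14 pairs. Each type was also tested against the mesenchyme-like cells of the same libraries, by edgeR's quasi-likelihood test on the summed counts with the library as a block and p-values adjusted by Benjamini-Hochberg over every gene in the fit. The study's limits, an adjusted p under 0.01 and a log2 fold-change over 1 in size, made a call. The 12 comparisons share the mesenchyme-like sums, and all 4 genes were tested in each. Of all genes, these comparisons called between 2.43% (tendon cell-like) and 34.8% (macrophage-like). Runx1 was called higher in 4 types and lower in 2, Runx2 in 3 and 3, Runx3 in 4 and 3, and Cbfb in none. Fitted without the library block, 8 of these 19 calls were kept.

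Runx1 was highest in blood cells. In macrophage-like cells it was at 489, 472 and 552 CPM in the penis libraries, 755 in forelimb and 767 in hindlimb, against 40.9, 39.2, 40.0, 89.2 and 112 CPM among mesenchyme-like cells. This was a log2 fold-change of 3.48 ± 0.15 (SE; adjusted p = 5.54e-08 by edgeR's quasi-likelihood test), in a comparison that called 34.8% of all genes, and every macrophage-like sum lay above every mesenchyme-like sum. Lymphoid-like cells, compared in the 3 penis libraries, held 465, 474 and 350 CPM of Runx1, which gave a log2 fold-change of 3.41 ± 0.20 (adjusted p = 1.41e-44 by edgeR; 23.8% of all genes called). With 3 libraries, an adjusted p so small cannot come from their spread alone and is no measure of it. The same holds for Runx3 in lymphoid-like cells below. Dendritic or Langerhans cell-like cells gave a log2 fold-change of Runx1 of 2.96 ± 0.27 (adjusted p = 5.63e-06 by edgeR; 12.0% called). Mast-like cells of the limb, too few in penis to compare, held 284 and 292 CPM. Immune cells were 1.93% to 2.22% of penis cells and 5.92% to 6.01% of limb cells, yet they held 15.9% to 17.9% of the Runx1 UMIs of penis and 26.6% to 28.4% of those of limb.

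Skeletal cells lay between. Osteoblast-like cells held 178, 81.6 and 97.9 CPM of Runx1 in penis, 149 in forelimb and 90.0 in hindlimb, with a log2 fold-change of 1.26 ± 0.19 (adjusted p = 1.23e-05 by edgeR; 2.45% of all genes called). It fell under the fold limit without penis library 1 (0.92), the library with the highest value, and with every deposited barcode (0.90). In chondrocyte-like cells it was 0.44 ± 0.067 (adjusted p = 0.00485 by edgeR; 5.52% called), within the fold limit.

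The lowest Runx1 levels were in endothelium, where RUNX1 is otherwise known from the embryonic vessels that bud off blood stem cells. Blood endothelial cell-like cells held 12.3, 11.6 and 23.2 CPM in penis and 49.1 and 47.8 in limb, which gave a log2 fold-change of -1.19 ± 0.17 against the mesenchyme-like sums (adjusted p = 9.85e-04 by edgeR; 24.5% of all genes called). In lymphatic endothelial cell-like cells of penis library 3 and both limb libraries it was -1.65 ± 0.26 (adjusted p = 2.56e-05 by edgeR; 15.2% called). Runx1 did not pass the limits in keratinocyte-like (0.15; 24.3% called), pericyte-like (0.33; 5.47% called), smooth muscle-like (-0.26; 7.34% called), glial cell-like (0.35; 14.2% called) or tendon cell-like cells (-0.21; 2.43% called). In the limb, muscle progenitor-like cells stood at 173 and 132 CPM and came next in the order after the blood cell types.

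Runx2 was highest in osteoblast-like cells, which make bone, and in hypertrophic chondrocyte-like cells, the cartilage that bone replaces. In osteoblast-like cells it was at 1193, 599 and 1001 CPM in penis libraries 1, 2 and 3, 1045 in forelimb and 593 in hindlimb (from 32, 41, 29, 25 and 19 cells), against 11.2, 14.6, 16.7, 35.5 and 39.1 CPM in mesenchyme-like cells. Each osteoblast-like sum was above every mesenchyme-like sum, and penis library 2 and the hindlimb library were the low ones. The log2 fold-change over the 4 libraries with at least 20 osteoblast-like cells was 5.64 ± 0.20 (adjusted p = 2.04e-20 by edgeR), in a comparison that called 2.45% of all genes. Hypertrophic chondrocyte-like cells of the limb, from 51 and 55 cells, held 800 and 730 CPM. Only 8 to 12 such cells were found per penis library, with 1068, 823 and 1344 CPM, and 83.3% to 100% of them also passed the osteoblast gate (12.7% to 23.5% in limb). Osteoblast-like and hypertrophic chondrocyte-like cells together made up 0.619% to 0.748% of penis cells and held 30.0% to 43.7% of all Runx2 UMIs of those libraries, and in limb 0.345% to 0.361% of the cells held 8.99% to 11.7%.

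Chondrocyte-like cells stood next, with 73.6, 85.2 and 86.2 CPM of Runx2 in penis and 109 and 127 in limb. The log2 fold-change against mesenchyme-like cells was 2.15 ± 0.18 (adjusted p = 5.02e-04 by edgeR; 5.52% of all genes called). Lymphoid-like cells of the penis held 24.0, 49.7 and 37.2 CPM, with a call close to the limit (1.36 ± 0.45, adjusted p = 0.00956 by edgeR, 23.8% of all genes called). That call was lost in each of the 9 alternatives tried, among them leaving out any penis library. In limb, mast-like cells held 51.3 and 75.7 CPM of Runx2, against 35.5 and 39.1 CPM in mesenchyme-like cells, with no test. Runx2 was called lower in blood endothelial cell-like (-1.51 ± 0.14), lymphatic endothelial cell-like (-3.12 ± 0.54) and glial cell-like cells (-1.61 ± 0.21), with adjusted p from edgeR of 1.36e-04, 7.92e-05 and 0.00116. Those comparisons called 24.5%, 15.2% and 14.2% of all genes. Smooth muscle-like cells had the lowest mean in penis, 4.28 CPM. Tendon cell-like cells (0.37 ± 0.45) and pericyte-like cells (0.10 ± 0.38) did not pass, and their penis libraries spread widely, from 14.9 to 45.1 and from 15.8 to 59.7 CPM. With 1 more marker in the gates the tendon cell-like value turned to -1.14 and was called lower (adjusted p = 0.00547 by edgeR).

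Runx3 was highest in lymphoid-like cells, at 168, 154 and 112 CPM in penis against 4.47, 3.79 and 3.94 CPM in mesenchyme-like cells of the same libraries (log2 fold-change 5.14 ± 0.34, adjusted p = 2.81e-37 by edgeR). Dendritic or Langerhans cell-like cells also stood high, with a log2 fold-change of 3.33 ± 0.34 (adjusted p = 1.56e-05 by edgeR). Mast-like cells of the limb held 88.4 and 99.7 CPM, the highest limb mean among types with at least 20 cells in each limb library, followed by hypertrophic chondrocyte-like cells (74.4 and 92.7 CPM), whose range overlapped theirs, and by dendritic or Langerhans cell-like cells (81.4 and 85.6 CPM). The 13 lymphoid-like cells of the forelimb and 8 of the hindlimb, too few to compare, held 147 and 132 CPM. Among skeletal cells, the osteoblast-like sums held 28.1, 33.4 and 22.4 CPM in penis, 55.2 in forelimb and 93.8 in hindlimb, and the log2 fold-change was 2.50 ± 0.35 (adjusted p = 3.46e-06 by edgeR). Chondrocyte-like cells rose by 1.32 ± 0.23 (adjusted p = 0.0079 by edgeR, with the call lost without penis library 2 or 3, forelimb or hindlimb), with 5.52, 8.79 and 14.2 CPM in penis and 29.2 and 48.7 in limb. Runx2 and Runx3 were thus both above the mesenchyme-like level in both skeletal types. The comparisons behind these Runx3 calls called 23.8% (lymphoid-like), 12.0% (dendritic or Langerhans cell-like), 2.45% (osteoblast-like) and 5.52% (chondrocyte-like) of all genes.

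At the other end, Runx3 was close to undetected in keratinocyte-like and lymphatic endothelial cell-like cells, and in blood endothelial cell-like cells of the penis. Keratinocyte-like cells yielded 3 Runx3 UMIs in the 3 penis libraries and 4 in the 2 limb libraries (log2 fold-change -3.07 ± 0.58, adjusted p = 0.00269 by edgeR). Blood endothelial cell-like cells held 0.834, 0.211 and 0.819 CPM in penis and 5.13 and 3.36 in limb (-2.07 ± 0.29, adjusted p = 0.00106 by edgeR). Lymphatic endothelial cell-like cells gave 1 UMI against 2358 in mesenchyme-like cells, a ratio of 0.0517 with an exact 95% interval from 0.00131 to 0.288 that covers counting error only. The keratinocyte-like call was lost without penis library 2 (-2.99, adjusted p = 0.0123 by edgeR). Runx3 was also called lower in lymphatic endothelial cell-like cells, a call lost with DESeq2 and without the forelimb or the hindlimb library. The keratinocyte-like, blood endothelial and lymphatic endothelial comparisons called 24.3%, 24.5% and 15.2% of all genes. After each cell was thinned to 2000 UMIs, 0.0354% of penis keratinocyte-like cells had a Runx3 UMI, against 0.791% of penis mesenchyme-like cells.

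Cbfb, whose product every RUNX protein binds, was near even across cell types. Its log2 fold-changes against mesenchyme-like cells lay between -0.55 (keratinocyte-like) and 0.32 (chondrocyte-like), and 0 of 12 passed the limits by edgeR's test. The adjusted p was under 0.05 in the keratinocyte-like (0.0203) and chondrocyte-like (0.0234) comparisons. In penis the mean over libraries ran from 56.9 CPM in keratinocyte-like cells to 96.1 CPM in osteoblast-like cells. In limb it ran from 57.0 CPM in keratinocyte-like to 161 CPM in chondrocyte-like cells. Where Runx1 and Runx2 peaked, Cbfb was at 68.3, 65.7 and 61.9 CPM in penis and 78.0 and 91.9 in limb among macrophage-like cells, and at 101, 104 and 83.9 and at 102 and 206 CPM among osteoblast-like cells. The osteoblast-like level was the higher in each library, as a description with no test.

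**Figure D2:**
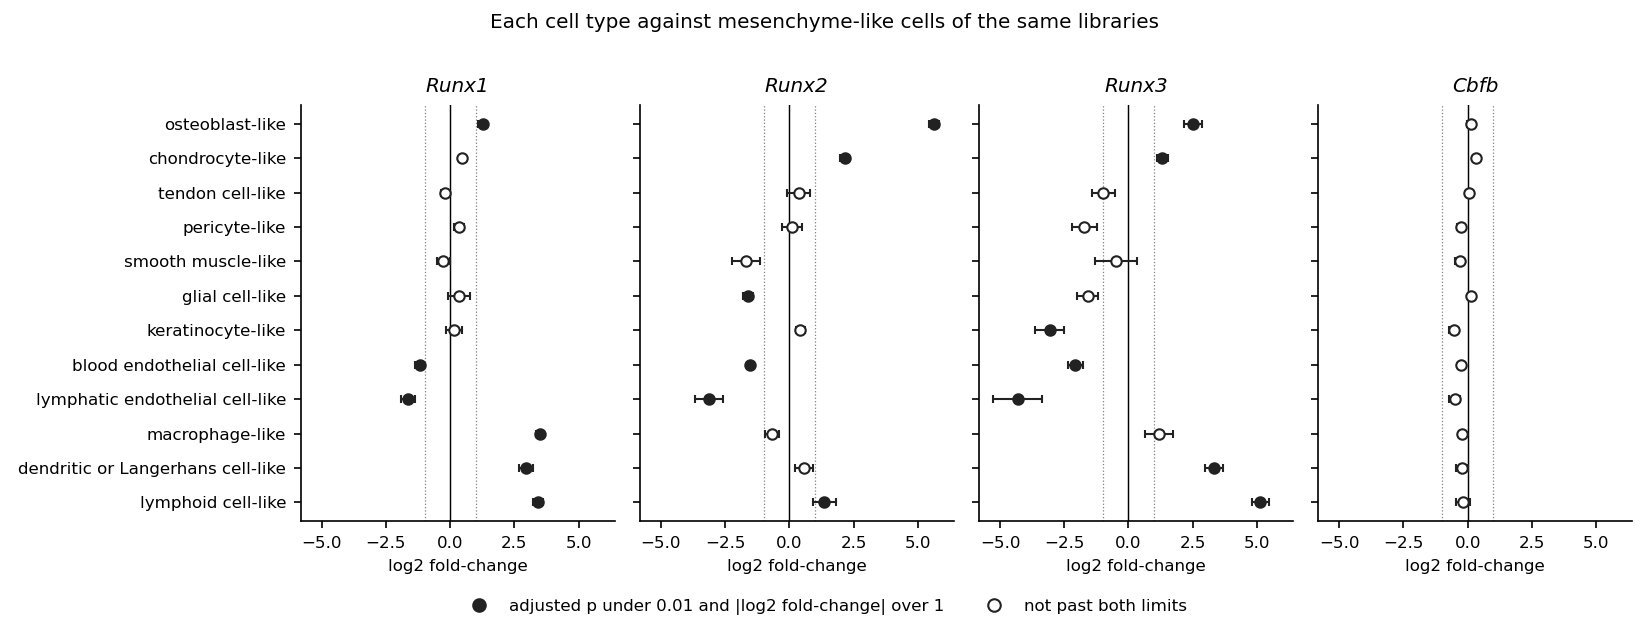
Log2 fold-change (horizontal axis, 1 panel per gene) of 12 cell types (vertical axis) against the mesenchyme-like cells of the same libraries, from edgeR, with bars of 1 SE and filled points for those past both limits. Runx2 in osteoblast-like cells (5.64) and Runx3 in lymphoid-like cells (5.14) are the largest rises, and no Cbfb point is filled.

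Penis and limb were compared within each type that had at least 20 cells in all 5 libraries. In mesenchyme-like cells all of the RUNX genes were lower in penis. Runx1 was at 40.9, 39.2 and 40.0 CPM in penis against 89.2 and 112 in limb (log2 fold-change -1.35 ± 0.083, adjusted p = 1.10e-06 by edgeR). Runx2 was at 11.2, 14.6 and 16.7 against 35.5 and 39.1 CPM (-1.43 ± 0.13, adjusted p = 1.04e-05 by edgeR). Runx3 was at 4.47, 3.79 and 3.94 CPM against 13.6 in both limb libraries (-1.76 ± 0.090, adjusted p = 3.56e-07 by edgeR), and for none of these did a penis library reach a limb library, as was so in one direction or the other for 81.2% of the 18624 genes with at least 100 UMIs in these cells. Cbfb, at 76.3, 74.3 and 83.7 against 112 and 126 CPM, differed by less than the fold limit (-0.63 ± 0.064, adjusted p = 2.27e-05 by edgeR). This comparison called 25.0% of all genes, so 3 calls among 4 genes stand beside a high background.

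In chondrocyte-like cells Runx1 (60.1, 50.7 and 55.1 CPM in penis, 123 and 149 in limb) and Runx3 were lower in penis, by -1.32 ± 0.13 and -2.14 ± 0.31 (adjusted p = 2.34e-06 and 9.73e-05 by edgeR; 18.9% of all genes called). Runx2 differed by -0.55 ± 0.12 and Cbfb by -0.81 ± 0.11, with adjusted p of 0.00163 and 5.02e-05 by edgeR, both within the fold limit. With every deposited barcode the Runx1 call in chondrocyte-like cells was lost (-0.78). The 2 groups of chondrocyte-like cells were not alike in their markers. In penis 99.2% to 100% of them also passed the mesenchyme gate, against 30.7% to 31.0% in limb, and their chondrocyte markers summed to 3161 to 3467 CPM against 15222 to 16018, and the part of this in the results was not tested. In osteoblast-like cells, compared with 19 hindlimb cells in an alternative added after the cell numbers were seen, no member passed: Runx1 differed by 0.08 ± 0.37, Runx2 by 0.26 ± 0.31, Runx3 by -1.31 ± 0.36 and Cbfb by -0.60 ± 0.30 (adjusted p from 0.0417 to 0.925 by edgeR; 4.14% called). With every deposited barcode Runx3 was called lower there (-1.85, adjusted p = 0.00222 by edgeR). Each of these sums rests on few cells, 19 to 41 per library. The osteoblast-like groups were not alike in their markers either. Their osteoblast markers summed to 10655 to 16718 CPM in penis and 3474 to 7491 in limb. No Runx2 UMI was found in 54 of 102 such penis cells and 12 of 44 limb cells. The part of these differences in the results was not tested.

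In blood endothelial cell-like cells all of the RUNX genes were lower in penis, by -1.69 ± 0.21 for Runx1, -1.49 ± 0.28 for Runx2 and -2.77 ± 0.59 for Runx3 (adjusted p = 1.09e-05, 5.82e-04 and 0.00139 by edgeR; 13.4% called). The Runx2 call was lost without the hindlimb library (-1.17) and the Runx3 call without the forelimb library (-2.42). Cbfb there differed by -0.18 ± 0.11. The mesenchyme markers in these cells summed to 608 to 707 CPM in penis and 638 to 839 in limb, and the part of free mesenchymal RNA in these low levels was not tested. Tendon cell-like cells had less Runx1 in penis (22.8, 20.5 and 49.2 against 81.8 and 102 CPM; -1.52 ± 0.23, adjusted p = 1.33e-04 by edgeR; 13.6% called) and a Runx2 difference of 0.76 ± 0.33 that did not pass. No member passed in macrophage-like (8.56% called), keratinocyte-like (9.06% called), pericyte-like (10.8% called) or glial cell-like cells (17.1% called). With 1 more marker in the gates Runx2 was called lower in keratinocyte-like cells of the penis (-1.05, adjusted p = 0.00574 by edgeR). In macrophage-like cells Runx1 differed by -0.58 ± 0.10 (adjusted p = 9.34e-04 by edgeR) and was lower in each penis library than in each limb library, as were 28.9% of genes with at least 100 UMIs. Runx3 was tested in 5 of the 9 types, because its UMIs were under the filter in the others. In glial cell-like cells it had 3 UMIs in penis and 18 in limb, a ratio of the levels of 0.0780 (exact 95% interval from 0.0147 to 0.267, counting error only). Over the 9 comparisons, Runx1 was called lower in 4, Runx2 in 2, Runx3 in 3 and Cbfb in none, and no gene was called higher in penis. Leaving out 1 library made 3 values calls in that direction: Runx1 in glial cell-like cells without forelimb (1.21, adjusted p = 0.00144 by edgeR), Runx2 in tendon cell-like cells without penis library 3 (1.10, adjusted p = 0.00864) and Runx3 in macrophage-like cells without penis library 1 (1.43, adjusted p = 0.00452).

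**Figure D3:**
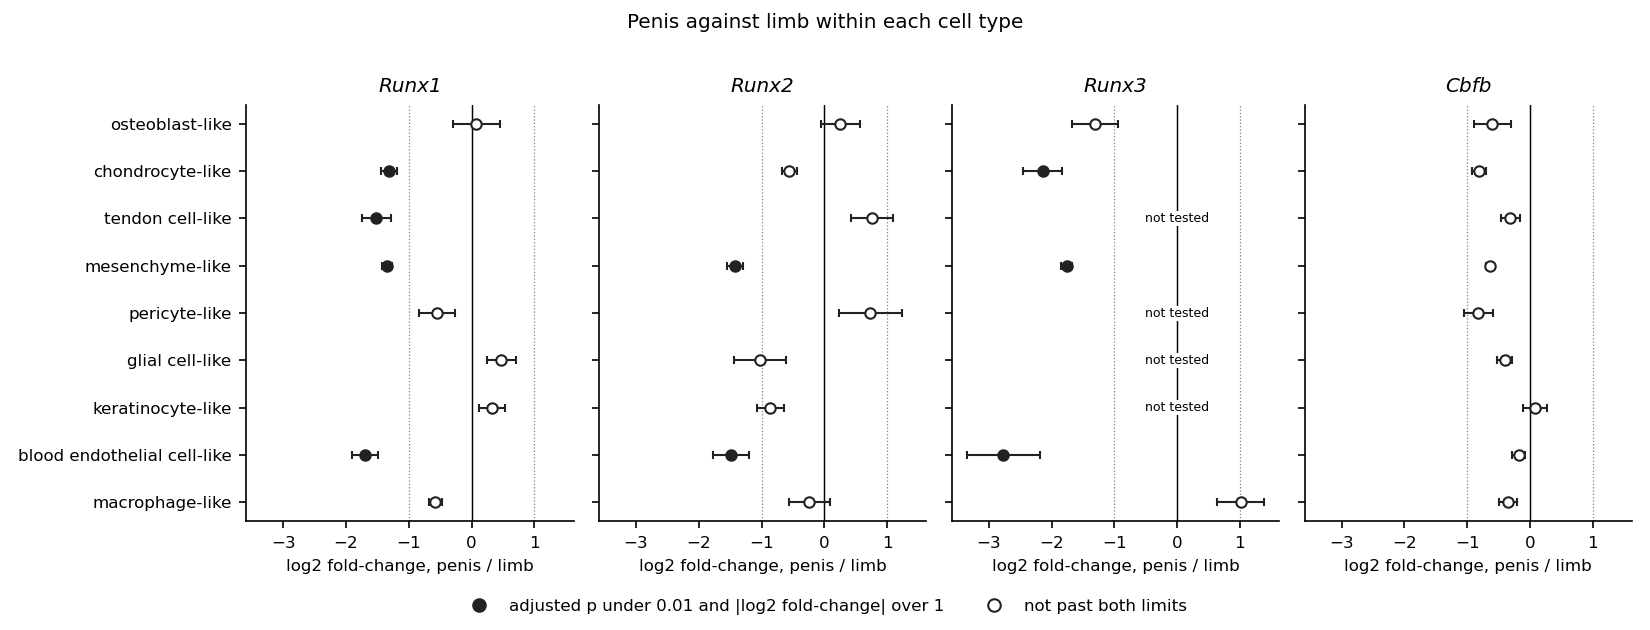
Log2 fold-change (horizontal axis, 1 panel per gene) of penis against limb within each of 9 cell types (vertical axis), from edgeR, with bars of 1 SE and filled points for those past both limits; types where Runx3 was not tested have no point. Filled points lie below 0 throughout, and the Runx1 points of keratinocyte-like (0.32) and glial cell-like cells (0.47) and the Runx3 point of macrophage-like cells (1.01) lie above 0 and are not filled.

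Whether the difference between penis and limb itself varied with cell type was tested as an interaction, in 4 types against mesenchyme-like cells. Of 16 such tests of the members, 2 passed both limits and 6 had an adjusted p under 0.01 by edgeR, a level that 15.0% (chondrocyte-like), 7.00% (macrophage-like), 8.45% (keratinocyte-like) and 12.9% (blood endothelial cell-like) of all genes reached. Runx1 did so most clearly in keratinocyte-like cells, at 60.3, 51.8 and 65.7 CPM in penis and 64.8 and 37.9 in limb, where RUNX1 is known as a regulator of hair follicle stem cells. The signed log2 fold-change of penis against limb, 0.32 there and -1.35 in mesenchyme-like cells, was higher by 1.68 ± 0.21 (adjusted p = 1.18e-06 by edgeR), in a test that called 5.64% of all genes. Runx3 in macrophage-like cells gave 2.66 ± 0.40 (adjusted p = 2.08e-05 by edgeR; 4.32% called). Its levels there were 8.39, 29.9 and 30.9 CPM in penis libraries 1, 2 and 3, from 7, 25 and 18 UMIs, and 10.3 and 12.2 CPM in forelimb and hindlimb, from 49 and 60 UMIs. Thus library 1 lay below both limb libraries and the other penis libraries above them. Markers of dendritic or Langerhans cells, which express Runx3, summed in these macrophage-like cells to 2638, 613 and 1850 CPM in penis and to 118 and 73.4 in limb, with 6.25% to 9.09% and 0.333% to 0.776% of the cells passing that gate too, and 7 of the 10 markers had a UMI in each penis library, and their part in the result was not tested. Runx2 in chondrocyte-like cells gave 0.81 ± 0.12 (adjusted p = 1.63e-05 by edgeR; 7.98% called), within the fold limit. It passed that limit and was called with 1 more marker (1.20, adjusted p = 0.00734) and with every deposited barcode (1.32, adjusted p = 5.88e-08). In the endothelial interaction 7.01% of genes were called, and there Cbfb differed by 0.49 ± 0.12 (adjusted p = 0.00758 by edgeR).

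The share of cells with at least 1 UMI was compared after each cell was thinned to 2000 UMIs, since penis cells were the deeper, and shallower cells were left out (6 to 13 macrophage-like and 13 to 27 mesenchyme-like cells per penis library, 45 to 47 and 69 to 161 per limb library). In macrophage-like cells 50.3% ± 3.30 (SD, n = 3) of penis cells and 68.0% of limb cells had a Runx1 UMI, while in blood endothelial cell-like cells, among the lowest of the types, 2.56% and 5.72% did. Without thinning the macrophage-like shares were 68.3%, 72.5% and 72.7% in penis (median depths of 9685 to 10959 UMIs) and 87.6% and 85.5% in limb (6697 and 7504 UMIs), and the endothelial shares 9.50%, 10.1% and 12.4% against 19.0% and 24.1% (9290 to 9657 against 5739 and 7509 UMIs). In mesenchyme-like cells the thinned shares in penis and limb were 5.29% and 14.8% for Runx1, 1.80% and 5.85% for Runx2, 0.791% and 2.64% for Runx3, and 13.4% to 14.8% (over the penis libraries) and 19.9% for Cbfb. Unthinned, the Cbfb shares of mesenchyme-like cells overlapped, at 49.9%, 47.9% and 49.0% in penis and 45.6% and 50.8% in limb. An exact two-sided permutation test over 3 penis and 2 limb libraries cannot give a p under 0.1. Over 32 such comparisons in 8 types the smallest Benjamini-Hochberg adjusted permutation p was 0.168.

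Runx2 UMIs were unevenly spread over the cells of each type. In penis 126 of 19581 cells had at least 10 Runx2 UMIs, and in limb 164 of 42571. Among 102 osteoblast-like penis cells, 54 had no Runx2 UMI, 4 had 1, 4 had 2 to 9 and 40 had 10 or more. The 44 osteoblast-like limb cells divided into 12, 4, 12 and 16. The penis cells were the deeper (medians of 11645 to 13174 UMIs per library, against 7644 in forelimb and 10591 in hindlimb), and no thinning was applied to these counts. After thinning to 2000 UMIs, 49.5%, 33.5% and 41.1% of osteoblast-like cells in the penis libraries had a Runx2 UMI. In forelimb 60.7% and in hindlimb 50.9% did. The part of depth in the difference was not tested. In hypertrophic chondrocyte-like cells 2 of 30 penis cells and 17 of 106 limb cells had no Runx2 UMI. In chondrocyte-like cells 242 of 305 penis cells and 2275 of 3111 limb cells had none, and 11 and 34 had at least 10. Penis cells were the deeper in both types. Hypertrophic chondrocyte-like medians were 26103 to 26965 UMIs per penis library, against 9074 in forelimb and 10284 in hindlimb. Chondrocyte-like medians were 12761 to 14523 UMIs, against 4719 and 5748. The part of depth in these counts was not tested.

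**Figure D4:**
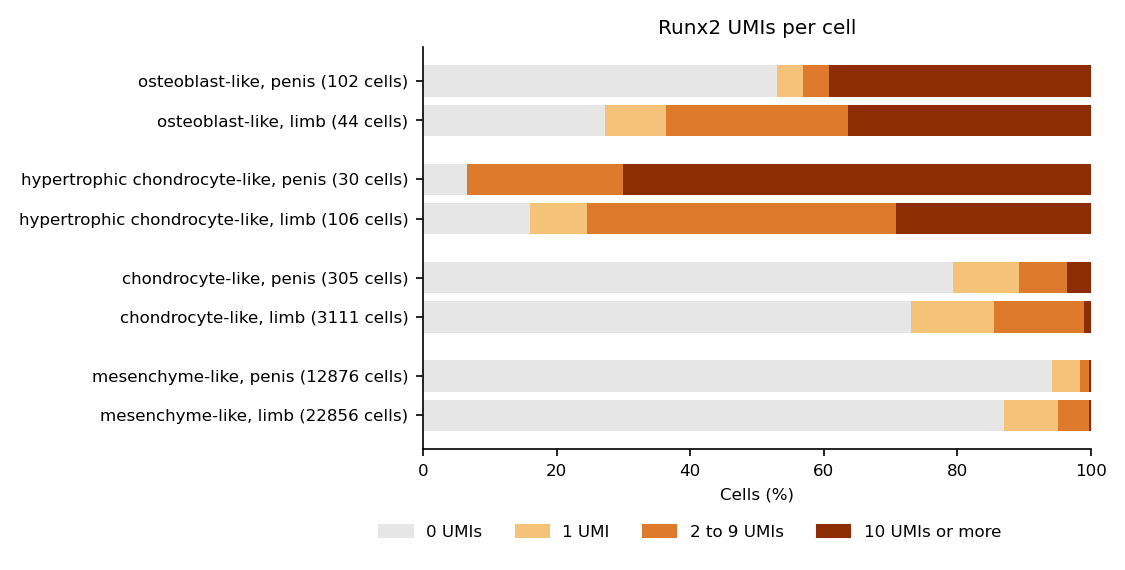
Percent of cells (horizontal axis) of each type in penis and in limb (vertical axis) with 0, 1, 2 to 9 and at least 10 Runx2 UMIs. Penis osteoblast-like cells stand mostly at the ends (54 with none and 40 with at least 10, of 102).

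The penis osteoblast-like cells with and without a Runx2 UMI were set side by side, with no test, since the gate did not use Runx2 and both sets had similar depth (medians of 10755 to 13496 and 11713 to 13127 UMIs per cell over the libraries). Runx1 was at 313, 152 and 212 CPM in the 48 cells with a Runx2 UMI and at 42.1, 26.5 and 14.5 CPM in the 54 cells without. Runx3 was at 56.1, 71.8 and 52.9 CPM against 0, 3.31 and 0, and of 20 penis osteoblast-like cells with a Runx3 UMI, 19 had a Runx2 UMI. Cbfb was at 117, 144 and 119 against 84.3, 72.8 and 58.2 CPM. In these cells each of the other members was higher with a Runx2 UMI in each penis library. The share of all genes that lay so was not counted, so this does not set the members apart. Some genes of bone matrix and its remodelling lay the same way: Spp1 (osteopontin) had means of 24564 and 199 CPM, Ibsp (bone sialoprotein) 2261 and 53.2, and Mmp13 (a collagenase of hypertrophic cartilage and bone) 1446 and 9.36. Of the other genes of the gate, Bglap (osteocalcin) was at means of 990 and 10.7 CPM, Bglap2 at 630 and 8.10, Ifitm5 (a protein of the osteoblast membrane) at 245 and 11.9 and Dmp1 (a matrix protein of osteocytes) at 149 and 5.51. The remaining genes of the gate were closer together, with Phex (a phosphate regulator) at means of 90.3 and 74.2 CPM, Alpl (alkaline phosphatase) at 357 and 160 and Sp7 (osterix, which acts after RUNX2) at 88.1 and 36.9. Col1a1, Col2a1, Acan, Sox9 and the other markers of the hypertrophic chondrocyte gate were set side by side too, and their direction is not reported here. In limb, where 32 osteoblast-like cells had a Runx2 UMI and 12 had none, mean Spp1 over the 2 libraries was not higher with one (656 and 878 CPM, from 72.6 to 1239 and from 109 to 1648). Runx1 (139 against 66.2 CPM), Runx3 (102 against 0) and Cbfb (187 against 66.2) were higher with a Runx2 UMI in both limb libraries. In chondrocyte-like cells Runx3 was again higher with a Runx2 UMI in each of the 5 libraries (means of 19.8 against 6.76 CPM in penis, the penis values from 3 to 9 UMIs a library, and 80.6 against 17.1 in limb), but Runx1 was lower with one in penis library 3 (41.9 against 58.7 CPM) and Cbfb in penis library 2 (76.6 against 87.6). In limb 15 of 15 osteoblast-like cells with a Runx3 UMI and 47 of 52 such hypertrophic chondrocyte-like cells also had a Runx2 UMI. Whatever their Runx3 count, only 12 of 44 osteoblast-like and 17 of 106 hypertrophic chondrocyte-like limb cells had no Runx2 UMI, so most cells had one anyway.

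**Figure D5:**
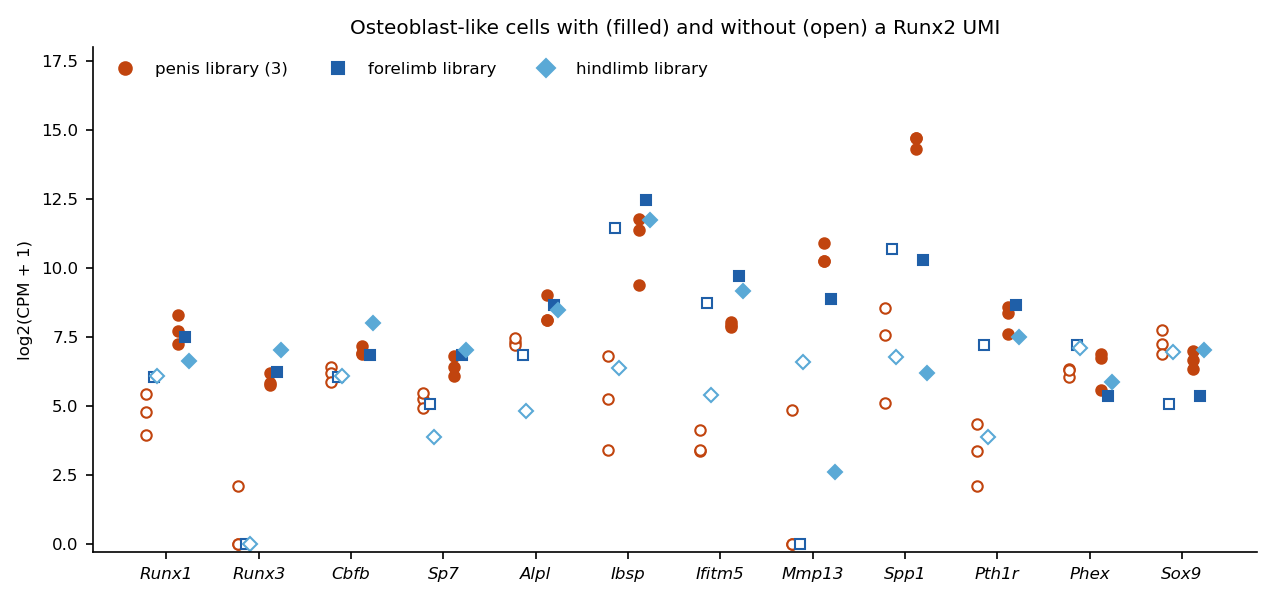
Osteoblast-like cells with a Runx2 UMI and without one, with log2(CPM + 1) on the vertical axis for the other members and genes of bone and cartilage on the horizontal axis, and 1 point for each library (circles penis, square forelimb, diamond hindlimb; filled with, open without). In the 3 penis libraries Runx1, Runx3, Cbfb, Spp1, Ibsp and Mmp13 lie higher in the cells with a Runx2 UMI.

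A small number of mesenchyme-like cells held much of the Runx UMIs of that type. In penis, 123 of the mesenchyme-like cells had at least 10 Runx1 UMIs and held 33.0% of the Runx1 UMIs of the type (1757 of 5323), at 1140 to 1253 CPM over the libraries against at most 27.2 in the rest. These cells also had Twist2, a bHLH factor that holds RUNX2 back, at 297 to 412 CPM against 77.8 to 83.4, Ets1, which binds DNA together with RUNX1, at 86.0 to 114 against 25.1 to 28.0, and Cbfa2t3, a co-repressor of the ETO family, at 50.4 to 67.3 against 6.16 to 6.97. Alpl was at 1.98 to 14.9 CPM in them against 42.7 to 48.3, so they were low in this bone gene. Their macrophage markers summed to 11.9 to 42.5 CPM against 19.6 to 21.8 in the rest, their keratinocyte markers to 481 to 521 against 113 to 127 and their chondrocyte markers to 538 to 632 against 170 to 175. In limb, 94 such cells held 8.38% of the Runx1 UMIs of the type. The genes named here were chosen after their values were seen. How many of all genes differed as much was not counted, so the values do not set these genes apart.

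Mesenchyme-like cells with at least 10 Runx2 UMIs differed from those. In penis there were 41, which held 39.8% of the Runx2 UMIs of the type. They had Runx3 at 53.8 to 87.7 CPM against 3.43 to 4.30 in the rest, Cbfb at 161 to 185 against 73.9 to 83.2, Alpl at 168 to 299 against 41.3 to 47.5 and Dlx5, a homeobox factor upstream of RUNX2, at 87.7 to 118 against 21.4 to 21.9. Twist2 was at 5.98 to 14.6 against 81.1 to 87.7 CPM, and Zfp521, a zinc finger factor that represses RUNX2 activity, at 692 to 869 against 236 to 255. In limb 58 such cells held 14.3%, and there too Runx3 (78.4 to 122 against 13.2 CPM), Cbfb (242 to 317 against 111 to 125) and Alpl (71.8 to 86.5 against 5.04 to 5.10) were the higher in them. Twist2 and Alpl thus lay on opposite sides in the Runx1-rich and the Runx2-rich cells of the penis. Here too the genes named were chosen after their values were seen, and the share of all genes that differed as much was not counted. Cells with many UMIs of a gene are also deeper (medians of 11404 to 14353 UMIs against 9186 to 10482 for Runx2 in penis). The depth of the Runx1-rich cells is not reported here. For neither set was a test made, and the part of depth was not tested.

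Known partners, inhibitors and targets of RUNX proteins were counted from 4 lists. In mesenchyme-like cells, penis against limb, where 25.0% of all genes were called, 0 of 15 co-repressors and inhibitors were higher and 3 lower (median log2 fold-change -0.06, against 0.00 for all genes): Cbfa2t3 (-1.32), Twist2 (-1.04) and Twist1 (-1.01), the last also a marker of the mesenchyme gate. Of 14 co-activators and partner factors 4 were higher and 0 lower, with a median of -0.26, among them Dlx5 (2.30) and Msx2 (2.17), both regulators of bone formation. Of 13 bone and cartilage targets of RUNX2 5 were higher and 1 lower (median 0.75), among them Alpl (3.05), Sp7 (1.63) and Bglap2 (1.10, an osteocalcin gene) above the limit and Ihh (-1.60, Indian hedgehog of prehypertrophic cartilage) below it, while Runx2 itself was lower in penis. These named targets are markers of the osteoblast or the hypertrophic chondrocyte gate, and cells that passed those gates were not typed as mesenchyme-like. Of 7 blood cell targets tested, 1 (Mpo, myeloperoxidase, -3.20) was lower and 0 were higher.

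In chondrocyte-like cells, penis against limb, 5 of 7 tested bone and cartilage targets were higher and 1 lower (median 1.21, against 0.01 for all genes), where 18.9% of all genes were called. Ihh, a marker of the hypertrophic chondrocyte gate, whose cells were typed apart, fell by 5.17 on the log2 scale. Col1a1 and Col1a2, the chains of type I collagen, were higher by 2.45 and 2.27. Of 14 co-activators 2 were higher and 3 lower, and of 14 co-repressors 1 and 2. In macrophage-like cells (8.56% of all genes called) none of the 4 blood cell targets tested passed, the largest differences being those of Itgal (0.93) and Csf2ra (0.88). In osteoblast-like cells (4.14% of all genes called) 3 of 12 targets were higher in penis: Bglap2 (6.97), Bglap (6.75) and Spp1 (4.05), all of them markers of the gate.

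The same lists were counted against mesenchyme-like cells. In macrophage-like cells, in a comparison that called 34.8% of all genes, 5 of 7 blood cell targets were higher and 0 lower (median 3.13, against -0.25 for all genes), with Spi1, the gene of the myeloid factor PU.1, at 7.38 and Itgal, an integrin of leukocytes, at 3.13. There 2 co-repressors were higher and 6 lower of 15, and 1 co-activator was higher and 10 lower of 14. Lymphoid-like cells (23.8% of all genes called) had 4 of 8 blood cell targets higher and 1 lower, Itgal at 5.27 among them, and dendritic or Langerhans cell-like cells (12.0% called) 4 of 6 higher and 0 lower. In osteoblast-like cells (2.45% called) 8 of 12 bone targets were higher, most of them markers of the gate, and beside them Dlx5 (2.12) was higher and Twist2 (-1.32) lower. Chondrocyte-like cells (5.52% called) had Sox9 (the cartilage regulator that binds RUNX2) at 2.59 and Dlx5 at 1.59 above, and Twist2 (-2.68), Cbfa2t3 (-1.74) and Twist1 (-1.39) below. In keratinocyte-like cells (24.3% called) 0 of 10 bone targets were higher and 5 lower, and in blood endothelial cell-like cells (24.5% called) 0 of 10 and 6.

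The genes whose level was most like that of each member were found over 67 sums of a library and type, among 15908 genes, as Pearson correlations of log2(CPM + 1). The sums share libraries and depth, so the values are a description. For Runx1 they were Fermt3 (0.822), Sash3 (0.821), Nckap1l (0.816), Fmnl1 (0.812) and Arhgap30 (0.812), genes known from blood cells. For Runx2 they were Sp7 (0.805), Ibsp (0.785), Panx3 (0.768), Smpd3 (0.758) and Ifitm5 (0.744), of which Sp7, Ibsp, Panx3 and Ifitm5 were gate markers. Runx3 came with Clint1 (0.806), Ptpn2 (0.758), Stk17b (0.748), Itgb7 (0.723) and Ankrd44 (0.708), and Cbfb with Nktr (0.770), Stx5a (0.717), Sfr1 (0.706), Sec61a1 (0.704) and Copa (0.699). Among the members, Runx3 correlated with both Runx1 (0.677) and Runx2 (0.613), whereas Runx1 and Runx2 gave 0.226, and Cbfb gave 0.0188 with Runx1, 0.307 with Runx2 and 0.201 with Runx3.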

How the data were processed

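The deposited matrices hold raw UMI counts per gene and barcode, with 1 matrix per library. They were made by the authors from 10x Genomics 3′ v3.1 libraries with Cell Ranger 7.0.0 on the mouse build mm10. No matrices were pooled here, but how many embryos went into each limb library is not stated. Whether intronic reads were counted is not given in the sources used here. The study's limits were read as genes per cell: 500 to 6000 genes and at most 5% mitochondrial UMIs in penis, 100 to 9000 (forelimb) or 9500 (hindlimb) genes and at most 10% in limb, with a complexity of at least 0.8. Replicate libraries differed by more than sampling noise. Cells were gated with 21 lists of markers in 9 classes, none of which holds a Runx gene or Cbfb; a red blood cell gate whose cells held 2439 to 4051 CPM of mesenchyme markers was not compared. Counts were summed per library and type (at least 20 cells) and fitted with edgeR 4.0.16 (R 4.3.3, limma 3.58.1) after TMM normalization and filterByExpr, called at an adjusted p under 0.01 and a log2 fold-change over 1 in size. Counts were simulated for penis against limb, with known changes above the fold limit and the same dispersion for every gene. On these the fits recovered 97.4% (mesenchyme-like, 20021 genes), 98.4% (macrophage-like, 8750 genes) and 96.2% (glial cell-like, 10830 genes) of the changed genes, with 0 false calls. Changes near the fold limit, comparisons with mesenchyme-like cells and interactions were not simulated, so the recovery does not bear on them. The genes named were the 4 members, the 5 genes most like each over sums with at least 500 UMIs, and at most 4 genes of a list in a comparison, those past the limits with the largest change and otherwise the largest change; some list members that the rule picked are not reported here. Genes in the description of Runx-rich cells and of the osteoblast gate were chosen after their values were seen. The members and lists were chosen with earlier results of these data known. Alternatives were DESeq2 1.42.0, its size factors, no filter on low counts, no library block, gates with 1 more marker, every deposited barcode, thinning to 1000 or 4000 UMIs or none, and leaving out each library. The share of genes whose penis and limb libraries did not overlap was counted on CPM, over genes with at least 100 UMIs in the 5 libraries. Exact 95% intervals cover counting error only. Tables and figures were made in Python 3.11.15 with scipy 1.17.1, numpy 2.4.6, matplotlib 3.10.9 and pandas 2.3.3.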

Additional observations from a re-analysis of the deposited data

Results flagged for a closer look

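Of 16 tests of whether the difference between penis and limb varied with cell type, as an interaction with mesenchyme-like cells, 6 had an adjusted p under 0.01 by edgeR, and 2 of them also passed the fold limit. The values are signed, the log2 fold-change of penis against limb in a type minus that in mesenchyme-like cells. Those past both limits were 1.68 for Runx1 in keratinocyte-like cells and 2.66 for Runx3 in macrophage-like cells. The others were 0.73 for Cbfb in keratinocyte-like, 0.65 for Runx1 in macrophage-like, 0.81 for Runx2 in chondrocyte-like and 0.49 for Cbfb in blood endothelial cell-like cells. In the last 3 the fold-change of penis against limb was negative in both types and nearer to 0 than in mesenchyme-like cells (-0.58 against -1.35, -0.55 against -1.43 and -0.18 against -0.63). Mesenchyme-like cells, in which the RUNX genes were lower in penis, stand on one side of every such test, and their sums are shared by all of them. Markers of dendritic or Langerhans cells in macrophage-like cells, and mesenchyme markers in chondrocyte-like cells, differed between penis and limb as given above, and their part was not tested.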

How the results depend on the processing

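Of 957 alternative values of the member tests, 913 kept their side of the limits, 32 lost the call, 11 gained one and 1 uncalled value became a call in the opposite direction. Among the 913, 33 uncalled values changed sign. Of 30 called values, 29 kept the call with DESeq2 size factors, 29 with no filter on low counts, 29 with 1 more marker and 27 with every deposited barcode; 26 of 28 did so with DESeq2 and 8 of 19 with no library block. Scaling by DESeq2 size factors moved the median of all genes by at most 0.0928 on the log2 scale. The cause of the changes below was not tested. No paired analysis was possible because forelimb and hindlimb have 1 library each, so that the groups compared share fewer than 2 replicate numbers, which only name the libraries.

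With 1 more marker, Runx2 was -1.05 in keratinocyte-like cells (penis against limb), and against mesenchyme-like cells -1.0 in macrophage-like, 1.21 in lymphoid-like and -1.14 in tendon cell-like cells, the last a reversal of 0.37; its chondrocyte interaction was 1.20. The genes called became 405 (946) and 1406 (910) in the pericyte-like comparisons with limb and with mesenchyme, 761 (1504) for tendon cell-like penis against limb, 1001 (408) for osteoblast-like against mesenchyme-like and 41 (284) for osteoblast-like penis against limb, main counts in brackets. With every deposited barcode, Runx1 was -0.78 in chondrocyte-like cells and Runx3 -1.85 in osteoblast-like cells (penis against limb, 456 genes called in the latter); against mesenchyme-like cells Runx2 was 1.00 in lymphoid-like and -1.99 in smooth muscle-like cells, Runx3 -1.63 in glial cell-like and Runx1 0.90 in osteoblast-like cells; the Runx2 chondrocyte interaction was 1.32. Runx2 in lymphoid-like cells was 1.33 with DESeq2 size factors, 1.33 with no filter (which called 649 genes in osteoblast-like penis against limb) and 1.32 with DESeq2. DESeq2 also gave -3.70 for Runx3 in lymphatic endothelial cell-like cells, where the call was lost, and -1.72 in glial cell-like cells, where a call was gained. It called 543 genes in pericyte-like penis against limb, 1498 in chondrocyte-like and 664 in tendon cell-like against mesenchyme-like (main counts 973 and 417).

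With no library block, the fit against mesenchyme-like cells gave Runx1, Runx2 and Runx3 values of -1.13, -1.56 and -2.02 in blood endothelial, -1.53, -2.98 and -4.11 in lymphatic endothelial cell-like cells, Runx2 values of 1.36 in lymphoid-like and -1.72 in glial cell-like, Runx1 and Runx3 values of 1.17 and 2.27 in osteoblast-like and a Runx3 value of 1.51 in chondrocyte-like cells, none called. It called 1047 (2579) genes in lymphatic endothelial, 421 in pericyte-like, 61 in osteoblast-like, 555 in chondrocyte-like and 94 in tendon cell-like comparisons. With no thinning, the Cbfb share in penis minus limb turned from -8.98 to 14.2 points in chondrocyte-like and from -5.89 to 0.735 points in mesenchyme-like cells.

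Leaving out each library in turn gave ranges, against mesenchyme-like cells, of 0.92 to 1.49 for Runx1 in osteoblast-like, 1.11 to 1.43 for Runx2 in lymphoid-like, and for Runx3 1.12 to 1.49 in chondrocyte-like, -3.89 to -2.68 in keratinocyte-like and -11.30 to -3.61 in lymphatic endothelial cell-like cells, where 1 UMI carries the fit. For penis against limb the ranges were 0.040 to 1.21 for Runx1 in glial cell-like, -1.73 to -1.17 for Runx2 and -3.09 to -2.34 for Runx3 in blood endothelial cell-like, 0.40 to 1.24 for Runx2 in tendon cell-like and 0.66 to 1.43 for Runx3 in macrophage-like cells; where 1 limb library was left the fit takes its spread from the penis libraries. The genes called ranged, against mesenchyme-like cells, from 525 to 724 (chondrocyte-like), 1523 to 2572 (glial cell-like), 1683 to 3377 (lymphoid-like), 558 to 1080 (pericyte-like), 700 to 1052 (smooth muscle-like) and 199 to 473 (tendon cell-like), and for penis against limb from 686 to 1206 (keratinocyte-like), 498 to 742 (macrophage-like), 174 to 276 (osteoblast-like) and 455 to 859 (pericyte-like). Of 336 alternative levels, 40 moved by more than the spread between libraries.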

Other observations

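Runx1t1, a co-repressor gene known as a fusion partner of RUNX1 in leukaemia and not a member of the family, was higher in penis over whole libraries, at a mean of 203 ± 4.75 CPM (SD, n = 3) in penis and 132 CPM in limb, with no test. The direction differed by type: Runx1t1 was at 255 to 267 CPM in penis and 159 and 183 in limb among mesenchyme-like cells, but at 42.7 to 46.0 against 109 and 136 CPM in chondrocyte-like and 45.5 to 71.3 against 181 and 203 CPM in tendon cell-like cells. Runx2os1, an antisense transcript that lies inside the span of Runx2 (chr17:44735845-44737612, plus strand, GRCm38), was at 0.761 ± 0.101 CPM in penis and 2.33 CPM in limb. The other antisense genes of the locus, Runx2os2 and Runx2os3, had means under 1 CPM in both tissues.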
